A study of Mus musculus with 5 samples.

Results

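The Th1 axis was taken as 9 genes, each matched by its symbol on the array. They are the cytokine gene Ifng, the transcription factor genes Tbx21, Eomes, Stat4 and Hlx, the IL-12 receptor chains Il12rb1 and Il12rb2, and the IL-18 receptor chains Il18r1 and Il18rap. They were measured by 11 probe sets, of 34945 probe sets with 1 gene symbol, and stand among 18193 genes. Cells that were CXCR6+ (labelled CXCR6 Hi) or CXCR6- (labelled CXCR6 Lo), all CD4+ T cells with 2 arrays for each subset, were sorted from the colonic lamina propria (LP) of Rag1-/- mice, which lack T and B cells of their own, at 6 weeks after transfer of CD4+CD45RBhigh T cells. They were set against CD45RBhigh CD4+ naive T cells on 1 array, taken from the spleen of BALB/c mice by the study's methods, though the labels of this sample name both spleen and LP. The label for the strain background is BALB/c throughout, the mice were 8 to 12 weeks old when used, and the number of mice behind each array is not given in the sources used here, so the p-values cover nothing beyond the spread among these few arrays. Both LP subsets descend from transferred cells of the naive type, and no LP T cells of healthy mice were compared.

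Th1 cells are the CD4+ T cells that make IFN-γ, the cytokine that activates macrophages. IL-12 from myeloid cells binds a receptor made of IL-12Rβ1 and IL-12Rβ2 and activates STAT4, while T-bet, encoded by Tbx21, switches on Ifng and keeps Il12rb2 expressed. IL-18 acts through IL-18R1 and its partner chain IL-18RAP and, together with IL-12, drives IFN-γ release without a signal from the T cell receptor. In the inflamed colon, this axis is known as a source of the IFN-γ that accompanies transfer colitis.

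STAT proteins, which carry the IL-12 signal, bind palindromes of the form TTCNNNGAA. The upstream sequences of the members with this motif are shown here. Whether the motif bears on any difference in signal was not tested. In RefSeq (build GRCm38.p6), 8 members had 11 start sites, and the 250 bases before each were searched on both strands. Ifng, Il12rb2 and 1 of 3 Il18r1 start sites held the motif, that is 3 of 11 windows, against 7.02% of 32851 windows of all genes. The T-box core AGGTGT was in 0 of the 11 windows, against 11.8% of all windows. The AP-1 motif TGANTCA was in 0 of the 11, against 6.75%. A match describes letters only, and the windows of Il18r1 start sites 1 and 2 overlap, so the windows are not independent. The windows of Ifng (chr10:118440796-118441045, plus strand) and Il12rb2 (chr6:67376189-67376438, minus strand) are given whole, with the motif in capitals, 249 and 123 bases before the start. Of Il18r1, the matches 219 and 152 bases before that start site are given with 10 bases on each side (chr1:40465777-40465805 and chr1:40465844-40465872, plus strand).
Ifng: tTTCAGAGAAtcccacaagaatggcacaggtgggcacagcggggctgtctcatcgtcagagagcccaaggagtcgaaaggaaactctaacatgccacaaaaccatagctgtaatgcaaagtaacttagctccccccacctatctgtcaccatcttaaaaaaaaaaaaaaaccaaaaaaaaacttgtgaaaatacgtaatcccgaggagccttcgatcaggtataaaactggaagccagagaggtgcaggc
Il12rb2: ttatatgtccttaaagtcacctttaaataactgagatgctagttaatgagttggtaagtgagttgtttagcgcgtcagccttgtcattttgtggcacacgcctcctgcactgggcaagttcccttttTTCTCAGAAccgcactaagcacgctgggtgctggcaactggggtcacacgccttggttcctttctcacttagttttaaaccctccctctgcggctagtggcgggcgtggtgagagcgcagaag
Il18r1, first match: tcggggttagTTCTGGGAActgtggagct
Il18r1, second match: agtacaggtcTTCCCAGAActgaaagctt

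Values are linear signals, scaled by the authors to a median of 1 on each array, and differences are log2 differences with their standard error (SE) from limma. Signals of different probe sets are not on a common scale. Sums over markers therefore follow their brightest probe sets and are compared only between arrays. Cxcr6, the gene behind the sort, had signals of 184 and 225 in CXCR6+ cells, 58.1 and 25.3 in CXCR6- cells and 10.5 in naive T cells, in the order of the sort. Cd4 and the CD3 genes had signals on all 5 arrays, but Cd3e and Cd3d were lower in LP cells by the test. Cd3e read 23.2 to 25.1 in LP cells, against 86.1 in naive T cells (-1.83 ± 0.24). Cd3d read 45.4 to 68.5, against 125 (-1.13 ± 0.24). Cd4 also lay below the naive array on all LP arrays and did not pass. Cd3g overlapped the naive array, and the T cell marker Cd5 lay above it. The naive array also stood apart in several other ways. Xist had signals of 181 to 215 in LP cells, against 0.864 in naive T cells, and the Y-linked gene Eif2s3y 1.59 to 3.41, against 53.5. The NK cell genes Ncr1 and Klre1 had signals of at most 0.685 and 1.21 on the LP arrays, against 24.9 and 31.0 on the naive array. All 3 measured B cell markers were lower on the LP arrays, whose cells came from mice without B cells of their own. These markers summed to 0.92 to 1.25 there, against 46.1 on the naive array. The 6 measured NK cell markers summed to 108 to 388 on the LP arrays, against 266 on the naive array, and 2 of them, Ncr1 and Klre1, were lower in LP cells by the test. None of these markers was at 0. On the LP arrays the marker sum of epithelium was higher (19.2 to 49.3, against 9.37 over 5 markers). So were those of stroma (76.8 to 133, against 7.53 over 4) and myeloid cells (195 to 235, against 90.2 over 6). Not every marker went this way. The stroma marker Col1a1 (0.409 to 0.898, against 1.72) and the myeloid markers Itgam and Cd68 lay below the naive array on all LP arrays. The epithelial marker Cdh1 overlapped it. The part of all these cell types in the comparisons with naive T cells was not tested. Nor was that of the lower T cell markers or of the difference in sex-linked transcripts.

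**Figure D1:**
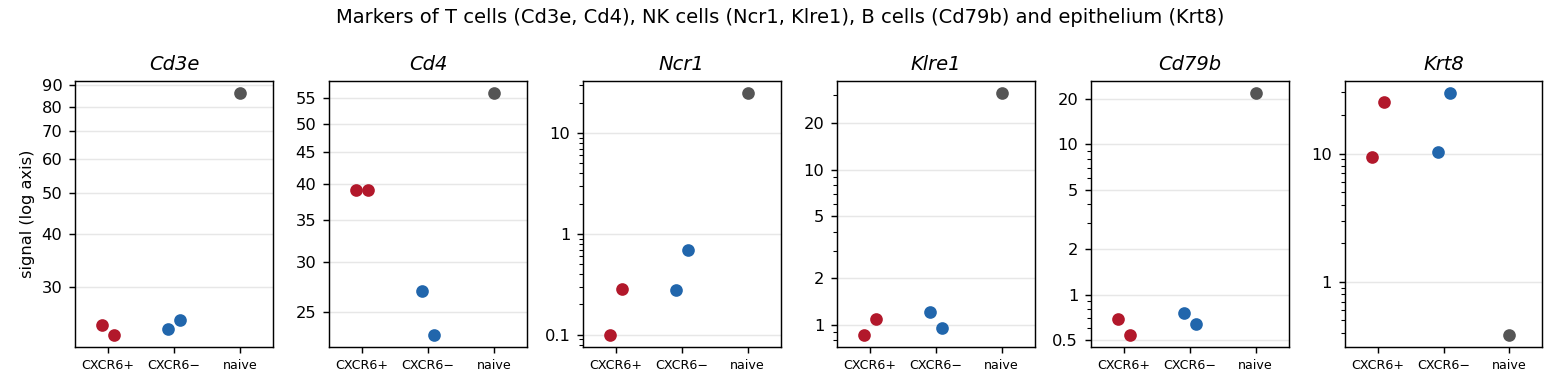
Signals of T cell (Cd3e, Cd4), NK cell (Ncr1, Klre1), B cell (Cd79b) and epithelial (Krt8) markers on log axes, 1 point per array, for CXCR6+ cells, CXCR6- cells and naive T cells. Ncr1, Klre1 and Cd79b are high on the naive array (24.9, 31.0 and 22.0), and Krt8 is low there (0.387).

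The first question was how the axis in LP T cells compares with naive T cells. Ifng, Il12rb2 and Il18r1 rose in LP cells, by 2.34 ± 0.37, 2.47 ± 0.43 and 2.68 ± 0.31 (log2 difference ± SE, n = 4 LP and 1 naive array), which are folds of 5.06 for Ifng and 6.40 for Il18r1. The naive signal of Il12rb2 was under the array median, so no fold is given for it. The other 6 members did not pass the test, and 0 members fell. Of all 18193 genes, 33.9% passed in this comparison, 15.1% higher and 18.8% lower, so that 3 of 9 is a share close to the background. The median difference of the 9 members was 0.91, against -0.14 over all genes. The naive array lay outside the range of the 4 LP arrays for 7 members, against 75.9% of all genes. It lay below the LP range for 5 members, against 35% of all genes, and above it for 2, against 40.9%. A permutation of the arrays cannot go below p = 0.2 with 4 against 1, so these p-values rest on limma's shared estimate of the spread, which comes from the LP pairs alone and assumes that the naive array varies like them. With any 1 LP array left out, 0 to 1 members passed, where 0% to 10.7% of all genes did. In RNA of bulk samples, fewer cells of a type and less RNA per cell cannot be told apart.

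The cytokine gene Ifng had signals of 156 and 248 in CXCR6+ cells, 42.4 and 38.2 in CXCR6- cells and 17.6 in naive T cells. The groups followed each other without overlap, with both CXCR6+ arrays highest and the naive array lowest. Against naive T cells, Ifng was 11.2-fold higher in CXCR6+ cells (3.48 ± 0.40, limma adjusted p = 0.0196). In CXCR6- cells it was 2.29-fold the naive level, and this difference did not pass (1.20 ± 0.40, limma adjusted p = 0.103), though it did under 5 of 12 other settings. For LP cells as a whole the limma adjusted p was 0.0231. Between the subsets, the CXCR6+ signal was 4.89 times the CXCR6- signal (2.29 ± 0.33, 95% confidence interval 1.35 to 3.23). This difference did not pass over all genes (limma adjusted p = 0.529, unadjusted 0.0030). Ifng had the 302nd largest difference between the subsets of 18193 genes, in either direction.

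**Figure D2:**
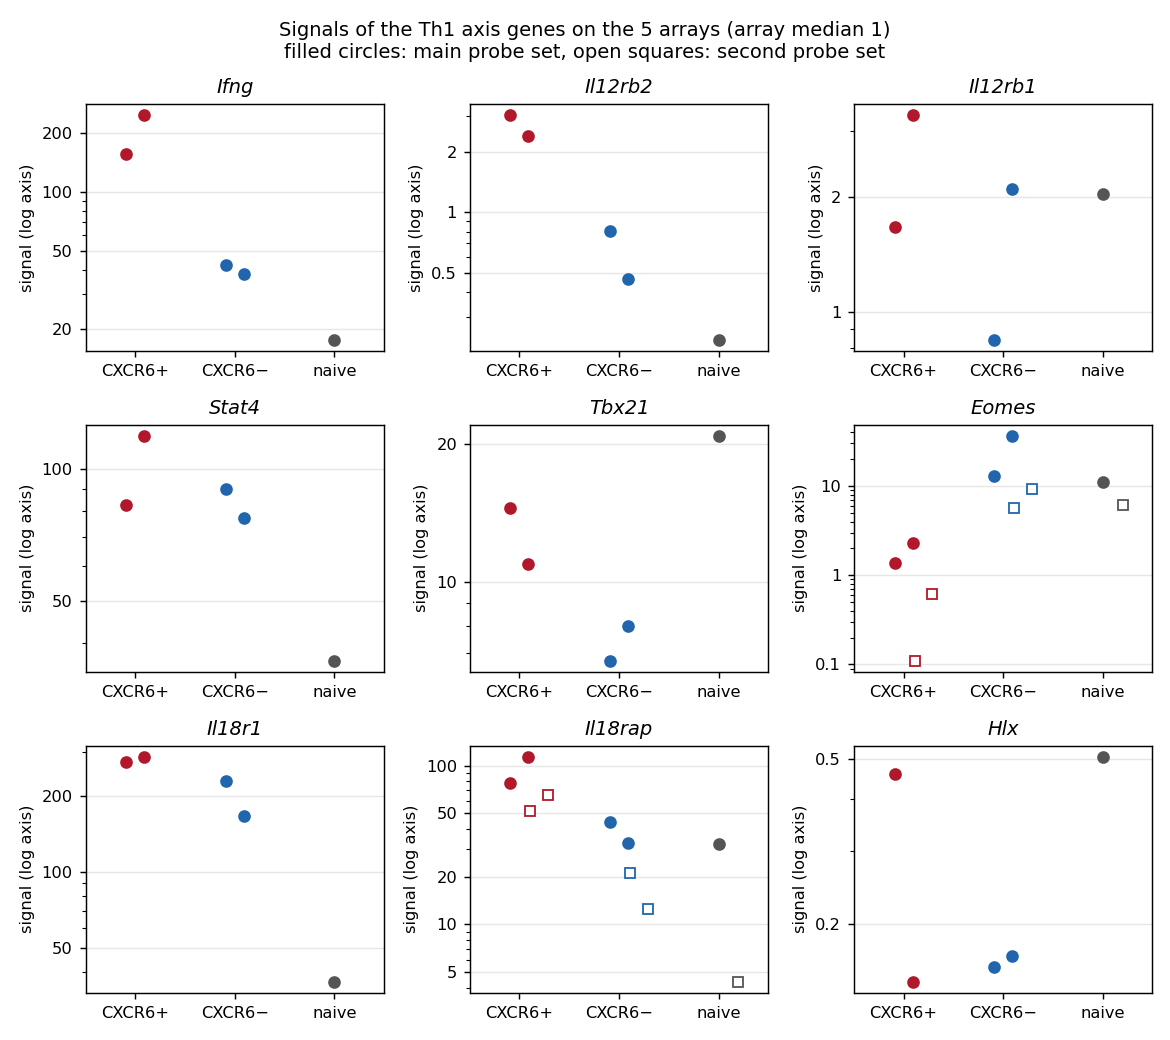
Signals of the 9 genes, 1 panel per gene on its own log axis, with 1 point per array for CXCR6+ cells (n = 2), CXCR6- cells (n = 2) and naive T cells (n = 1). Filled circles are the main probe set and open squares the second one. Ifng and Il12rb2 step down over the 3 groups, Il18r1 is low only on the naive array (36.6), and Eomes is lowest in CXCR6+ cells (1.38 and 2.32).

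Among the transcription factors, Tbx21, Eomes, Stat4 and Hlx did not follow Ifng as a group. Tbx21 encodes T-bet, the T-box factor that defines Th1 cells. Its signals were 14.5 and 10.9 in CXCR6+ cells, 6.72 and 7.98 in CXCR6- cells and 20.8 in naive T cells. On this scale the naive array was the highest of the 5, and both CXCR6- arrays were the lowest. The place of the naive array depended on the scaling, since by its percentile among the genes of an array Tbx21 stood at 81.3 and 75.9 in CXCR6+ cells, 70.9 and 73.5 in CXCR6- cells and 79.7 in naive T cells. Tbx21 fell in CXCR6- cells against naive T cells (-1.51 ± 0.34, limma adjusted p = 0.0468), a call close to the threshold that was lost under 7 of 12 other settings. In CXCR6+ cells the difference was -0.73 ± 0.34 (limma adjusted p = 0.184), and in LP cells as a whole it was -1.12 ± 0.31 (limma adjusted p = 0.0646), and -0.50 with quantile normalization. The naive array also had the high Ncr1 and Klre1 signals given above. Of the other measured NK cell markers, Klrd1 (53.9 on the naive array), Gzma (153), Cd160 and Klra8 lay within the LP range there. NK cells express Tbx21 and Eomes. The part of NK cells in these differences was not tested. Between the subsets Tbx21 differed by 0.78 ± 0.27, with an interval of -0.0040 to 1.57 and an unadjusted p of 0.0507 from limma.

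Eomes encodes the second T-box factor of the axis, known from memory CD8+ T cells and NK cells. Its main probe set had signals of 1.38 and 2.32 in CXCR6+ cells, 13.0 and 36.5 in CXCR6- cells and 11.0 in naive T cells. The second probe set read 0.11 and 0.622 in CXCR6+ cells, 5.61 and 9.31 in CXCR6- cells and 6.10 in naive T cells. On both probe sets the CXCR6+ arrays were lower than the other 3 arrays, and no CXCR6+ array overlapped a CXCR6- array. The difference between the subsets was -3.61 ± 0.65 on the main probe set (interval -5.48 to -1.74, unadjusted p = 0.00655, limma adjusted p = 0.564). Only 20 of the 18193 genes had a larger difference in either direction. On the second probe set it was -4.79 ± 0.98 (unadjusted p = 0.0101, limma adjusted p = 0.596), the lowest value of all 34945 probe sets, although its CXCR6+ signals lay below the array median of 1, where replicate arrays differ most. Against naive T cells, the main probe set differed by -2.62 ± 0.80 in CXCR6+ cells (limma adjusted p = 0.0853) and by 0.99 ± 0.80 in CXCR6- cells (limma adjusted p = 0.399), which became 0.24 or 1.73 when 1 CXCR6- array was left out. Of the NK cell markers, Ncr1 was at 0.100 and 0.286 in CXCR6+ cells and 0.278 and 0.685 in CXCR6- cells, and Klre1 at 0.869 and 1.09 in CXCR6+ cells and 1.21 and 0.963 in CXCR6- cells. Klrd1 was at 118 and 112 in CXCR6+ cells and 55.1 and 39.1 in CXCR6- cells (limma adjusted p = 0.637), and Gzma at 266 and 65.8 in CXCR6+ cells and 88.9 and 65.5 in CXCR6- cells. The 6 measured markers summed to 388 and 182 in CXCR6+ cells and 147 and 108 in CXCR6- cells, and their part in the Eomes difference was not tested. The CXCR6- replicate with the higher Eomes signal, replicate 2, also had the higher Krt8 signal, 29.6 against 10.3 in replicate 1. The CXCR6+ arrays had Krt8 signals of 9.36 and 25.4. The part of epithelium in the Eomes difference was not tested.

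Stat4, the factor that IL-12 activates, had signals of 82.6 and 119 in CXCR6+ cells, 89.7 and 77.4 in CXCR6- cells and 36.4 in naive T cells. All 4 LP arrays were higher than the naive array, and the subsets overlapped. The LP difference was 1.32 ± 0.33, which did not pass the threshold of 0.05 (limma adjusted p = 0.0542) but passed it under 5 of 12 other settings. The difference between the subsets was 0.25 ± 0.30, with an interval of -0.60 to 1.10. Hlx, a homeobox factor that acts with T-bet in early Th1 cells, was under the array median everywhere, at 0.46 and 0.145 in CXCR6+ cells, 0.157 and 0.167 in CXCR6- cells and 0.505 in naive T cells. No difference of Hlx passed, and its 2 CXCR6+ arrays were more than 3-fold apart.

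The IL-12 receptor chains gave different pictures. Il12rb2 encodes the IL-12 receptor chain that Th1 cells keep and Th2 cells lose. Its signals were 3.05 and 2.40 in CXCR6+ cells, 0.810 and 0.464 in CXCR6- cells and 0.232 in naive T cells. As for Ifng, the arrays of the 3 groups did not overlap, and the CXCR6+ arrays were highest. Il12rb2 rose in CXCR6+ cells against naive T cells (3.54 ± 0.47, limma adjusted p = 0.0222). In CXCR6- cells the difference was 1.40 ± 0.47 and did not pass (limma adjusted p = 0.103). For LP cells as a whole the limma adjusted p was 0.0269. Between the subsets it differed by 2.14 ± 0.38 (interval 1.04 to 3.25, unadjusted p = 0.00651, limma adjusted p = 0.564). The CXCR6- and naive signals were under the array median of 1, so these sizes are uncertain. With signals under 1 raised to 1, the differences from naive T cells were 1.44 in CXCR6+ cells and 0.72 in LP cells, and neither passed. Il12rb1, the chain that the IL-12 and IL-23 receptors share, had signals of 1.68 and 3.30 in CXCR6+ cells, 0.843 and 2.11 in CXCR6- cells and 2.04 in naive T cells. These overlapped in every comparison, and the LP difference was -0.20 ± 0.72, with an interval of -2.26 to 1.86.

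The IL-18 receptor chains lie next to each other on chromosome 1. Il18r1, which encodes the chain that binds IL-18, had signals of 272 and 287 in CXCR6+ cells, 231 and 166 in CXCR6- cells and 36.6 in naive T cells. All 4 LP arrays were more than 4 times the naive array. It rose in both subsets, by 2.93 ± 0.33 in CXCR6+ cells (limma adjusted p = 0.0196) and by 2.42 ± 0.33 in CXCR6- cells (limma adjusted p = 0.0226), and by the mean of both with a limma adjusted p of 0.0155. No other member did so in this fit, but Ifng and Stat4 did under 5 of 12 other settings each and Il12rb2 under 1. Between the subsets it differed by 0.51 ± 0.27, with an interval of -0.27 to 1.30.

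Il18rap, the accessory chain needed for signalling, had 2 probe sets that agreed in direction and differed in size. The main probe set read 77.8 and 114 in CXCR6+ cells, 44.4 and 32.3 in CXCR6- cells and 31.9 in naive T cells. The second read 51.9 and 65.6 in CXCR6+ cells, 21.0 and 12.5 in CXCR6- cells and 4.36 in naive T cells. On both, the CXCR6+ arrays were highest and the naive array lowest, but on the main probe set the lower CXCR6- array was almost level with the naive array. In a fit over all 34945 probe sets, the second probe set rose in LP cells by 2.82 ± 0.42 (limma adjusted p = 0.0241), where 29.6% of probe sets passed and 13.1% passed as higher. In CXCR6+ cells it rose by 3.74 ± 0.46 (limma adjusted p = 0.0240), where 24.1% passed and 11.1% passed as higher. The main probe set, which stood for the gene, did not pass in LP cells (0.91 ± 0.38, limma adjusted p = 0.145) or in CXCR6+ cells (1.56 ± 0.41, limma adjusted p = 0.0658, passed under 6 of 12 other settings). Between the subsets the differences were 1.31 ± 0.34 on the main probe set (unadjusted p = 0.0204) and 1.85 ± 0.38 on the second (unadjusted p = 0.00978), and neither passed after adjustment (limma adjusted p = 0.679 and 0.594).

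**Figure D3:**
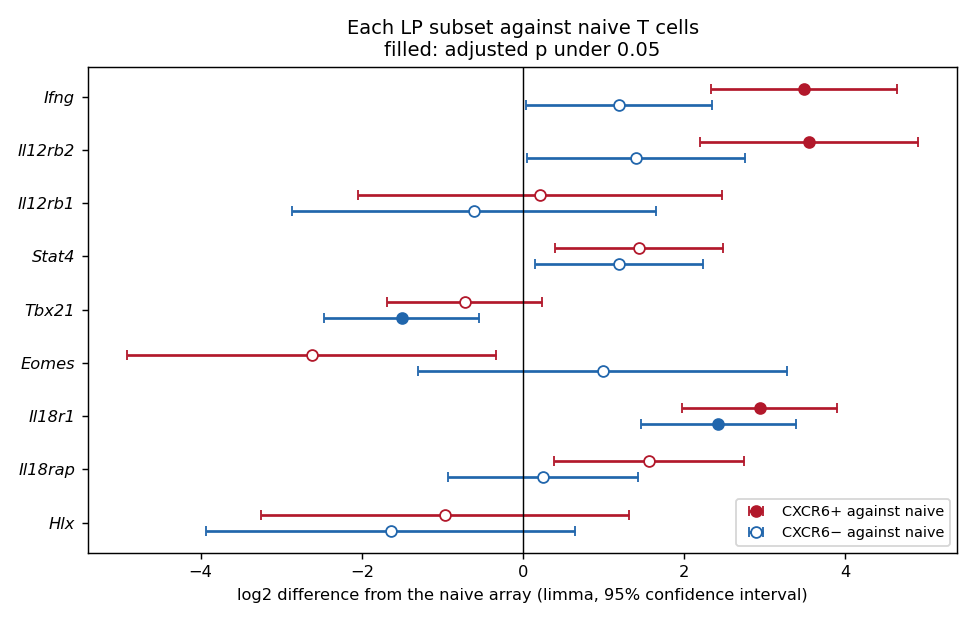
Log2 difference from the naive array of each gene in CXCR6+ cells and in CXCR6- cells, with 95% confidence intervals from limma and filled points where the adjusted p is under 0.05. Ifng, Il12rb2 and Il18r1 are filled for CXCR6+ cells (3.48, 3.54 and 2.93), and Il18r1 (2.42) and Tbx21 (-1.51) for CXCR6- cells.

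By subset, 3 members rose in CXCR6+ cells against naive T cells and 0 fell, where 28.6% of all genes passed, 13.2% higher and 15.3% lower. In CXCR6- cells 1 member rose and 1 fell, where 29.5% of all genes passed, 12.8% higher and 16.7% lower. The median member difference was 1.44 in CXCR6+ cells, against -0.11 over all genes, and 0.99 in CXCR6- cells, against -0.15. Both comparisons share the naive array. Passing in one subset and not in the other does not show a difference between them, and that difference was tested directly.

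The second question was how the axis in CXCR6+ cells compares with CXCR6- cells, the point at which the study set cytokine production of the subsets side by side. No member passed after adjustment, and neither did any other gene (limma, 0 of 18193, that is 0%). At an unadjusted p under 0.05, 4 of the 9 members differed, Ifng, Il12rb2 and Il18rap with higher signals in CXCR6+ cells and Eomes with lower ones, where 6.55% of all genes (1191) did so, 3.37% higher and 3.18% lower. The 2-sample t test of the study's methods gave 3 members at the same unadjusted level and 0 members, of 1 gene in all, after adjustment. For 6 members the arrays of the subsets did not overlap, with CXCR6+ above for Ifng, Tbx21, Il12rb2, Il18r1 and Il18rap and below for Eomes. Over all genes 39.5% did not overlap, 25.1% above and 14.3% below. The median member difference was 0.78, against 0.08 over all genes. With 2 arrays against 2, the smallest p of an exact two-sided permutation test is 0.333. The subsets also differed in some T cell signals. Cd4, with the largest difference of the 5 measured T cell markers, read 39.2 and 39.1 in CXCR6+ cells and 27.0 and 22.9 in CXCR6- cells. Its difference was 0.65, against 2.29 for Ifng, 0.78 for Tbx21 and 0.51 for Il18r1. Cd3g and Cd3d were also higher in CXCR6+ cells without overlap (0.62 and 0.51), while Cd3e (-0.043) and Cd5 (0.34) overlapped. The part of T cell content in the subset differences was not tested.

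**Figure D4:**
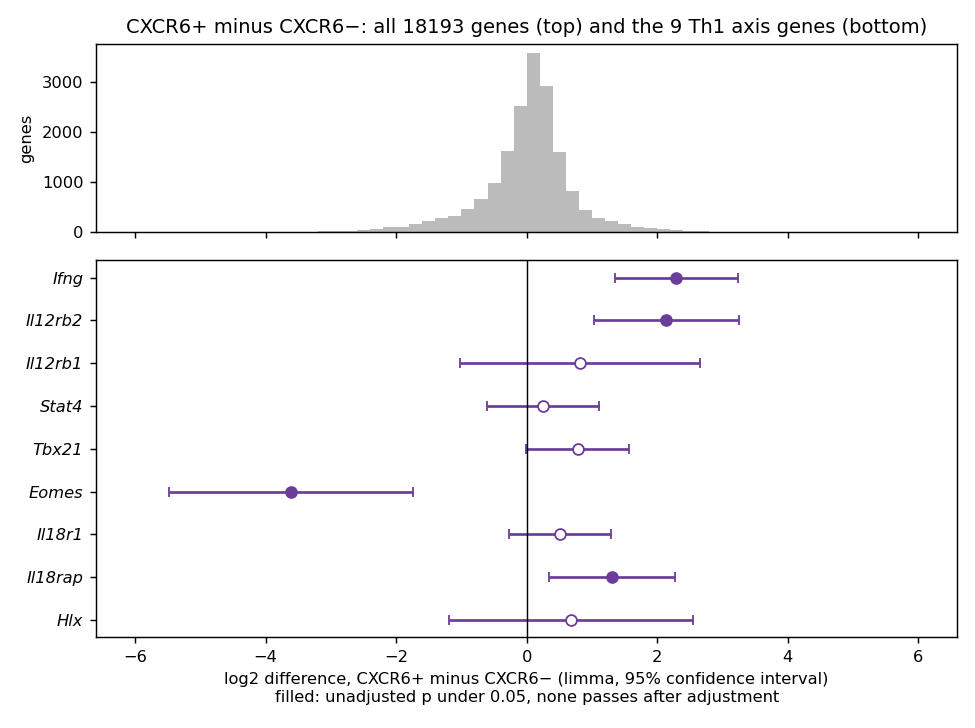
Log2 difference between CXCR6+ and CXCR6- cells. The upper panel is a histogram of all 18193 genes and the lower panel shows the 9 members with 95% confidence intervals from limma, filled at an unadjusted p under 0.05. Ifng (2.29) and Il12rb2 (2.14) lie in the upper tail and Eomes (-3.61) in the lower tail, and no gene passes after adjustment.

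The other genes of the pathway were described by lists that follow the signal from ligand to target, in LP cells against naive T cells. Their counts stand beside 15.1% of all genes that passed as higher and 18.8% that passed as lower. Of the 6 measured ligand genes and inhibitors of the IL-12 and IL-18 families (7 on the list), 3 rose, 0 fell and 3 did not pass, with a median difference of 1.27. Il23a, the p19 chain of IL-23, had signals of 8.26 and 11.1 in CXCR6+ cells, 8.27 and 9.22 in CXCR6- cells and 0.054 in naive T cells (7.40 ± 0.30). Il12b, the p40 chain of IL-12 and IL-23, read 1.34 and 2.19 in CXCR6+ cells, 1.71 and 5.09 in CXCR6- cells and 0.108 in naive T cells (4.38 ± 0.75). Il12a, the p35 chain of IL-12, rose by 2.22 ± 0.36. All 3 had naive signals far under the array median, where replicate arrays differ most, so the sizes are uncertain. Myeloid cells are the usual source of the IL-12 chains. Of the 6 myeloid markers 2 rose, Lyz2 and Csf1r, and 4 did not pass, with Itgam and Cd68 below the naive array and Adgre1 and Itgax above it on all LP arrays. The part of myeloid cells was not tested. Il18 itself had signals of 1.34 and 2.56 in CXCR6+ cells, 1.68 and 2.74 in CXCR6- cells and 6.45 in naive T cells, and the difference did not pass (-1.69 ± 0.53, limma adjusted p = 0.0856).

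Of the other receptor chains and kinases, 6 of 8 were measured, and 1 rose, 2 fell and 3 did not pass. Stat3, which carries IL-6 and IL-23 signals, rose by 1.25 ± 0.26. Il27ra, the IL-27 receptor chain, read 12.7 to 21.1 in LP cells, against 63.3 in naive T cells (-1.98 ± 0.30). Il6st, the gp130 chain shared by IL-6 and IL-27, differed by -1.39 ± 0.32. Of 11 measured genes of IL-18 signalling (13 on the list), 2 rose, 0 fell and 9 did not pass. Gadd45b, which links IL-18 to the p38 kinase in Th1 cells, had signals of 127 and 114 in CXCR6+ cells, 103 and 70.4 in CXCR6- cells and 7.55 in naive T cells (3.74 ± 0.33). Irak2, a kinase-like adaptor of IL-1 and IL-18 receptors, rose by 1.16 ± 0.26.

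Of the 8 genes of IFN-γ reception and feedback, 3 rose, 1 fell and 4 did not pass. Ifngr1, the chain that binds IFN-γ, had signals of 102 and 141 in CXCR6+ cells, 95.7 and 93.6 in CXCR6- cells and 12.4 in naive T cells (3.10 ± 0.30). Ifngr2, the second chain, read 1.83 to 2.97 in LP cells, against 3.91 in naive T cells, and did not pass (-0.65 ± 0.38). Of the brakes on cytokine signals, Socs3 rose by 1.92 ± 0.29 and Ptpn2 by 1.85 ± 0.26. Irf9, a DNA-binding partner of STATs in interferon signalling, read 11.4 to 14.2 in LP cells, against 44.0 in naive T cells, and fell by 1.79 on the log2 scale.

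Of 17 partners of T-bet and Th1 effector genes, 5 rose, 5 fell and 7 did not pass. Those that rose were Bhlhe40, Zeb2, Fasl, Havcr2 and Cxcr3, and those that fell were Twist1, Ccl3, Ccl4, Lta and Furin. Bhlhe40, a helix-loop-helix factor that sustains cytokine output of T cells, had signals of 210 and 225 in CXCR6+ cells, 147 and 146 in CXCR6- cells and 14.3 in naive T cells (3.64 ± 0.24). Zeb2, a zinc finger factor that acts below T-bet in CD8+ T cells, rose by 2.91 ± 0.42. Ccl3, a chemokine of activated T cells, NK cells and macrophages, read 5.53 to 8.05 in LP cells, against 36.1 in naive T cells (-2.49 ± 0.30). Twist1, which limits Th1 cytokine genes, differed by -4.36 ± 1.02 with signals of at most 0.145 on the LP arrays, against 1.41 on the naive array, a size that is uncertain at such low signals. Between the subsets 4 of the 17 differed at an unadjusted p under 0.05 and 0 after adjustment, where 6.55% and 0% of all genes did. These 4 were named after their values were seen. Fasl, a death ligand, had signals of 82.1 and 105 in CXCR6+ cells and 32.5 and 46.8 in CXCR6- cells. Furin, a protease gene that is a STAT4 target, read 52.4 and 48.9 in CXCR6+ cells and 19.1 and 19.2 in CXCR6- cells. The cytokine gene Lta read 4.83 and 6.43 in CXCR6+ cells and 2.23 and 1.96 in CXCR6- cells. Ccl5, a chemokine of effector T cells, ran the other way with 97.0 and 74.0 in CXCR6+ cells and 149 and 176 in CXCR6- cells.

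Of the genes listed as regulators that oppose Th1 cells, 6 of 8 were measured, and 1 rose, 2 fell and 3 did not pass. Twist2, a relative of Twist1, had signals of 0.728 and 0.747 in CXCR6+ cells, 1.31 and 1.25 in CXCR6- cells and 0.040 in naive T cells (4.60 ± 0.24), again a naive signal far under the array median. Foxp3 encodes the factor of regulatory T cells. Its signals were 0.327 and 0.459 in CXCR6+ cells, 0.913 and 0.816 in CXCR6- cells and 9.60 in naive T cells (-4.05 ± 0.32). The part of regulatory T cells on the naive array in this difference was not tested. Zfpm1, a cofactor of GATA factors that can also restrain them, is not a clear opponent of Th1 cells and differed by -1.81 ± 0.31. Gata3, which directs Th2 cells, read 11.0 to 15.5 in LP cells, against 10.6 in naive T cells, and did not pass (0.29 ± 0.36). Between the subsets 2 of 6 differed at an unadjusted p under 0.05 and 0 after adjustment, where 6.55% and 0% of all genes did. They were Foxp3 and Twist2, both lower in CXCR6+ cells (limma unadjusted p = 0.0178 and 0.0233), and were named after their values were seen.

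The genes most like Ifng were sought among 7371 genes with a mean signal of at least 4, by the Euclidean distance of log2 signals centred on each gene's mean over the 5 arrays. The nearest were Trgv4, a T cell receptor gamma variable segment (distance 0.77), Csf2, which encodes GM-CSF (0.84), and Asb2, a ubiquitin ligase subunit (0.97), where the median gene was at 3.32. Csf2 had signals of 21.3 and 25.5 in CXCR6+ cells, 8.88 and 6.20 in CXCR6- cells and 1.91 in naive T cells. The genes nearest to Tbx21 were Tln1 (0.28), Gtpbp1 (0.29) and Khnyn (0.33), with a median of 1.35. Tln1, the gene of the integrin adaptor talin, had signals of 27.5 and 26.1 in CXCR6+ cells, 15.5 and 17.5 in CXCR6- cells and 41.6 in naive T cells.

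The 2 genes on each side of every member gave 32 neighbours, of which 7 rose in LP cells, 5 fell and 20 did not pass, beside 15.1% and 18.8% of all genes. In the cluster that holds both IL-18 receptor chains, Il1r1, the receptor of IL-1, rose by 3.50 ± 0.84 (limma adjusted p = 0.0495), with signals of 41.2 and 30.2 in CXCR6+ cells, 31.8 and 8.51 in CXCR6- cells and 2.13 in naive T cells. Il1rl2, between Il1r1 and Il18r1, read 7.02 to 9.18 in LP cells, against 9.72 in naive T cells, and did not pass. Around Stat4, the nearest genes on both sides rose. Nab1, a corepressor of EGR factors, read 141 to 170 in LP cells, against 10.3 in naive T cells (3.92 ± 0.26). Nabp1, which encodes a single-stranded DNA binding protein, read 192 to 269 on the LP arrays, against 37.9 on the naive array (2.60 ± 0.25).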

How the data were processed

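RNA of CXCR6+ and CXCR6- CD4+ T cells of the colonic LP and of naive T cells was hybridized to 5 Affymetrix mouse expression arrays (GeneChip Mouse Genome), whose number limits the precision. The authors deposited intensity values of 45101 probe sets as linear signals with a median of 1 on each array. The methods name GeneSpring and the submitters' notes RMA. How background was corrected is not given in the sources used here. A gene was represented by its probe set of highest mean signal over the 5 arrays, and log2 values were computed from the deposited intensities, with the 2 signals of 0 raised to 0.001. Dim genes were kept.

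The 3 groups entered 1 linear model in limma 3.58.1 (lmFit, then eBayes, R 4.3.3). Its two-sided p-values had a Benjamini-Hochberg adjustment across the 18193 genes, at a threshold of 0.05. The fit has 2 residual and 1.68 prior degrees of freedom. Second probe sets were tested in a fit over all 34945 probe sets. Simulated data with known differences were used as a test of the model. The members, lists, motifs and tests were chosen with earlier results of these data known. All 9 members are named with every probe set, and of each list up to 4 genes that passed against naive T cells with the largest differences, or others given as values. Of 34945 probe sets, 34741 matched RefSeq by Entrez ID. The motif search and the plots were made in Python 3.11.15 with matplotlib 3.10.9.

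The alternatives were other choices of probe set, a filter at the 40th percentile, quantile normalization, array medians, log2 of the signal plus 1, a floor at 1, robust fitting with a trend, the replicate number as a block, each LP array left out, a minimum fold of 2, and the t test of the study's methods.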

Additional observations from a re-analysis of the deposited data

Results flagged for a closer look

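On the main Eomes probe set, both CXCR6+ arrays lay below the naive array and both CXCR6- arrays above it. The difference between the subsets was -3.61 on the log2 scale, with an unadjusted p of 0.00655 and a limma adjusted p of 0.564. On the second probe set, CXCR6- replicate 1 lay below the naive array, so the subsets did not part around it. Of the genes of the lists, Gadd45g and Cd226 showed the opposite arrangement, with both CXCR6+ arrays above the naive array and both CXCR6- arrays below it. Gadd45g, a partner of Gadd45b, had signals of 10.8 and 16.0 in CXCR6+ cells, 8.51 and 4.96 in CXCR6- cells and 8.55 in naive T cells, and the subsets differed by 1.02 (limma adjusted p = 0.761). Cd226, an activating receptor, had signals of 1.20 and 3.03 in CXCR6+ cells, 1.05 and 0.895 in CXCR6- cells and 1.13 in naive T cells, and the subsets differed by 0.98 (limma adjusted p = 0.797). Of the cell type markers, Cd3g (129 and 167 in CXCR6+ cells, 97.8 and 93.7 in CXCR6- cells, 105 in naive T cells), Cd8a (3.07 and 4.67 in CXCR6+ cells, 1.88 and 1.47 in CXCR6- cells, 1.89 in naive T cells) and Cdh1 (11.3 and 7.77 in CXCR6+ cells, 4.06 and 6.70 in CXCR6- cells, 7.35 in naive T cells) were arranged as Gadd45g, with differences between the subsets of 0.62, 1.18 and 0.84 (limma adjusted p = 0.761, 0.707 and 0.780). The naive array is a single array, so its place between the subsets carries no spread of its own.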

How the results depend on the processing

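Il18r1 passed against naive T cells in LP cells under all 12 alternatives that kept every array, and Ifng and Il12rb2 under 9 of 12 each. In LP, CXCR6+ and CXCR6- cells against naive T cells, where 3, 3 and 2 members passed, 5, 6 and 5 passed with the 40th percentile filter, which left out Hlx and under which 62.7%, 58.2% and 59.4% of all genes passed, against 33.9%, 28.6% and 29.5%. With log2 of the signal plus 1, and likewise with a variance trend and robust fitting, 6, 6 and 4 passed, where 39.9% to 45.6% of all genes did. With a floor at 1, 1 passed in LP and 1 in CXCR6- cells, where 24.1% and 21.6% of all genes did. With quantile normalization and with array medians 5 passed in CXCR6+ cells, beside 22.9% and 31.4% of all genes. With the mean of probe sets and with the fit over all probe sets 1 passed in CXCR6- cells, beside 20.4% and 25.6%. With the methods' t test 1 passed in LP cells, beside 25.8% of all genes. It gave 0 in each subset, where only 0.187% (CXCR6+) and 0.0879% (CXCR6-) of all genes passed. Between the subsets 0 members passed under any alternative run. Leaving out any 1 LP array left 0 to 1 members in LP cells, where only Ifng passed and only without CXCR6+ replicate 1, and 0 to 0 in CXCR6+ and in CXCR6- cells. Of all genes, 9.72% and 10.7% passed in LP cells without CXCR6+ replicate 1 or 2, 0% without either CXCR6- replicate, and 0% in each subset, so these counts say nothing particular about the members. Those fits have fewer residual degrees of freedom, and the lone array of a subset is assumed to vary like the other groups.

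Same-numbered LP arrays deviated together with a correlation of 0.0193 over all genes and 0.192 over those with a signal over 1, and Krt8, Epcam and Krt20 were higher in replicate 2 of both subsets. With 2 numbers and no shared batch in the labels, the numbers were not taken to pair the samples. With a fixed replicate block, 2 members passed in LP cells and 0 in each subset, with the Ifng call in LP cells lost, where 19.3% of all genes passed in LP cells and 0% in each subset. The random replicate block could not be estimated and was not run. Of the members, Il12rb1 changed sign in LP cells with quantile normalization (0.083) and array medians (0.35), and without single arrays its difference ranged over -0.53 to 0.13 in LP cells, -0.28 to 0.70 in CXCR6+ cells and -1.27 to 0.047 in CXCR6- cells. Without single arrays, the difference between the subsets was -0.013 to 0.51 for Stat4 and -0.16 to 1.51 for Hlx, and the Eomes difference in LP cells was -1.19 to -0.45. Of 24 list counts recomputed with all arrays, 8 moved by over 1.5 times, and of 24 with 1 array left out, 21 did. The median of all genes in LP cells was -0.14 and moved to -0.0039 with quantile normalization and 0.41 with array medians, where 4331 genes passed higher and 2189 lower, against 2756 and 3414. The cause of these changes was not tested. Replicate arrays differed by a median of 0.79 (CXCR6+) and 0.73 (CXCR6-) on the log2 scale for signals under 1, and by 0.24 and 0.19 for signals over 4, which limits Hlx, Il12rb1, Il12rb2 and the second Eomes probe set most.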
